A study of Rattus norvegicus with 9 samples.

Results

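The genes described here are 48 genes of DNA replication and mitosis, chosen by name for their textbook roles, with earlier results of these data known, and looked up by gene symbol in the table of all genes. Of the 48 symbols 47 were found, each in 1 row, among 36267 features, and Ccnb2 was not matched to a row. Total RNA came from the kidneys of 9 rats of 180 to 200 g, 3 rats in each of 3 groups. Control rats (CON) had no treatment. The injury model, contrast-induced acute kidney injury (CIAKI), was made in rats that had 200 mg/kg of furosemide, a drug that drives urine output, intragastrically, were dehydrated for 6 h and then had the iodinated contrast medium iopromide (370 mg I/mL) at 15 mL/kg into the tail vein. Rats of the icariin group (ICA) went through that same protocol after 100 mg/kg of icariin, a flavonoid glycoside, into the stomach once a day for 3 days. None of the 9 rats had icariin without contrast, or furosemide and dehydration without contrast, and the sources used here do not give the time from contrast to tissue.

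A cell that divides first passes from G1 into S phase, driven by D-type and E-type cyclins with their kinases, which release the E2F transcription factors. In S phase the MCM helicase opens the DNA, PCNA clamps the polymerases to it, and thymidylate synthase and ribonucleotide reductase supply the nucleotides. Mitosis is then started by cyclins A and B with Cdk1, carried out by spindle motors and kinetochores, guarded by the spindle checkpoint and ended when the anaphase-promoting complex destroys its substrates. Replication genes are mostly read through E2F sites, and genes of mitosis through CCAAT boxes and a short element called CHR, at which the DREAM repressor and the MuvB-FoxM1 activator bind. Few cells of an adult kidney divide at any time, and surviving tubule cells are known to enter the cycle during repair after injury.

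Values are in CPM, reads per 1000000 reads of the table. Libraries held 64380578 to 90398405 reads, so 1 CPM stood for 64.4 to 90.4 reads. Every marker fixed for proximal tubule (7), thick ascending limb (4), principal cells (4) and podocytes (4) averaged at least 1 CPM. Many members were low, and 32 of 47 reached 1 CPM in all 9 libraries. Others were not, such as Ccnd1 and Kif11, with control means of 264 and 100 CPM. The group mean lay below 1 CPM for 2 members in control (Ccne1 and Ube2c), for 11 in CIAKI (Rrm2, Plk1, Ttk, Bub1b, Birc5, Ube2c, Cdca3, Nuf2, Ndc80, Kif2c and Kif4a) and for 2 in icariin kidneys (Ube2c and Kif2c). In total 46 members had at least 1 CPM in at least 3 libraries and entered the main test, and Ube2c did not. Of all 36267 features, 16731 passed this filter. Of the 46 members, Ccne1, Cdca3, Nuf2, Kif2c and Kif4a had fewer than 6 libraries at 1 CPM. Cdca3, Nuf2, Kif2c and Kif4a passed only through the 3 control libraries, where they were high, with 0 CIAKI libraries at 1 CPM. Ccne1 passed through the 3 CIAKI libraries, with 0 control libraries at 1 CPM. Counts over all 47 members without that filter are therefore given as well. Every fold change from limma is a difference in log2(CPM + 1), so for low genes it is smaller than the true change.

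In CIAKI kidneys most of the mitosis genes among the members fell in limma. In the further lists of mitosis genes, described below, most genes were not called lower. None of the MCM helicase genes was called, and PCNA was called higher by edgeR and DESeq2 but not by limma. With limma, 30 of 46 tested members were lower than in control, 2 were higher and 14 did not pass an adjusted p of 0.05, with a median log2 fold change of -0.88. That median was -0.43 over the 27 members kept by a filter of 5 CPM. Over all 16731 features tested, 20.5% were lower and 20.8% higher, with a median of -0.003. Without the filter on low values limma called 28 of 47 members lower and 1 higher, against 11.7% and 10.7% of all features. The quasi-likelihood test of edgeR, run on recovered reads, also called 28 of 47 lower and 3 higher, against 15.5% and 17.2%. The CIAKI libraries lay wholly below the control libraries for 32 of 46 tested members and wholly above for 4, against 26.5% and 26.9% of all features. Cdca3, Nuf2, Kif2c and Kif4a, which passed the filter only through control libraries, are among the 30 called lower and the 32 wholly below.

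Both members of chromosome structure fell. Top2a, the topoisomerase that untangles sister chromatids, stood at 24.3, 30.7 and 22.8 CPM in control, 1.56, 3.51 and 2.08 CPM in CIAKI and 10.9, 20.2 and 15.4 CPM in icariin kidneys. The 3 groups did not overlap, with CIAKI lowest and icariin in the middle. Mki67, which encodes the Ki-67 protein that coats mitotic chromosomes, stood at 38.9, 38.6 and 35.3 CPM in control, 6.99, 7.33 and 7.81 CPM in CIAKI and 15.8, 26.8 and 21.9 CPM in icariin kidneys. It showed the same order with no overlap, and its CIAKI mean was 19.6% of the control mean, against 9.19% for Top2a. The log2 fold changes in CIAKI were -3.02 for Top2a (SE 0.26, limma adjusted p = 7.2e-05) and -2.20 for Mki67 (SE 0.16, limma adjusted p = 4.5e-05).

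All 5 tested members among mitotic cyclins, Cdk1 and their regulators fell, with a median of -1.28. Ccna2 (cyclin A2) stood at 5.58, 6.4 and 5.76 CPM in control, 0.842, 1.37 and 1.09 CPM in CIAKI and 2.3, 4.16 and 4.03 CPM in icariin kidneys, a log2 fold change of -1.73 in CIAKI (SE 0.20, limma adjusted p = 0.00027). Cdk1, the kinase that starts mitosis, stood at 5.41, 6.43 and 4.93 CPM in control against 1.96, 1.62 and 1.52 CPM in CIAKI (-1.28, SE 0.24, limma adjusted p = 0.003). Ccnb1, the cyclin B1 partner of Cdk1, lay at -1.19 and Melk, a mitotic kinase gene, at -1.73. Foxm1, the transcription factor that drives these genes, lay at -0.54 (SE 0.14, limma adjusted p = 0.015), and this call ended without control 1 (0.059) and with quantile normalization (0.066).

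Of 8 members for mitotic kinases, the spindle checkpoint and the chromosomal passenger complex, 7 fell and none rose. Plk1, the polo-like kinase of mitotic entry, stood at 3.56, 4.42 and 3.66 CPM in control and 0.806, 0.847 and 0.637 CPM in CIAKI (-1.47, SE 0.18, limma adjusted p = 0.00037). The checkpoint kinase genes Ttk, Bub1b and Bub1 lay at -1.16, -0.96 and -0.93. Birc5, which encodes the passenger protein survivin, lay at -0.75. The Aurora kinase genes lay at -0.43 (Aurka) and -0.47 (Aurkb), with limma adjusted p of 0.042 and 0.03. The call of Aurka ended in each fit that left out a library other than CIAKI 1 (0.052 to 0.13), and that of Aurkb ended without any control library, CIAKI 2 or CIAKI 3 (0.054 to 0.09). With edgeR neither passed (0.061 and 0.065), and with DESeq2 both did (0.011 and 0.021). Cdca8, the borealin subunit of the passenger complex, stood at 3.63, 4.01 and 3.96 CPM in control and 4.87, 3.15 and 4.01 CPM in CIAKI, so the groups overlapped (95% interval of the log2 fold change -0.31 to 0.37).

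All 3 partners of the anaphase-promoting complex had CIAKI libraries below every control library. Cdc20, its activator, had 10.5, 10.8 and 10.3 CPM in control libraries against 4.24, 4.03 and 4.46 CPM in CIAKI libraries (-1.14, SE 0.12, limma adjusted p = 0.00021). Cdca3, which helps to degrade the mitosis inhibitor Wee1, fell from 2.77, 3.14 and 3.14 CPM in control to 0.493, 0.461 and 0.311 CPM in CIAKI (limma adjusted p = 0.00054). Ube2c, the ubiquitin-conjugating enzyme of the complex, was counted with 72, 82 and 58 reads in control, 9, 15 and 6 in CIAKI and 58, 40 and 63 in icariin kidneys. It was too low for the main test, and edgeR placed it at -2.73 in CIAKI (adjusted p = 0.0019).

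Of 4 kinetochore members all fell. Cenpf, a large outer kinetochore protein, stood at 13.2, 14.4 and 11.8 CPM in control and 1.43, 3.09 and 1.35 CPM in CIAKI (-2.30, SE 0.23, limma adjusted p = 0.00015). Ndc80 and Nuf2, partners in the complex that grips microtubules, lay at -1.26 and -0.84, and the kinetochore motor gene Cenpe at -0.70. The Cenpe call ended without control 1, control 2, CIAKI 2 or CIAKI 3 (limma adjusted p of 0.07 to 0.082) and with edgeR (0.052). With DESeq2 Cenpe passed (adjusted p = 0.015). Without the filter on low values Aurka, Aurkb and Cenpe lost their calls (limma adjusted p of 0.065 to 0.095), and so they did with quantile normalization (0.075 to 0.22).

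Of 6 members that build the spindle midzone and cut the cell apart, 5 fell. Kif20a, a kinesin of the midzone, stood at 8.89, 8.3 and 8.39 CPM in control, 1.17, 1.81 and 1.99 CPM in CIAKI and 3.26, 4.67 and 3.92 CPM in icariin kidneys. Its log2 fold change in CIAKI was -1.86 (SE 0.17, limma adjusted p = 9.1e-05). Prc1, which bundles midzone microtubules, lay at -1.59, the scaffold gene Anln (anillin) at -1.33, and Kif23 and Racgap1, which form the centralspindlin complex, at -1.17 and -0.74. Ect2, the exchange factor that activates RhoA at the furrow, stood at 13.6, 16.6 and 12.9 CPM in control against 11.9, 6.88 and 16.8 CPM in CIAKI, and did not pass (-0.33, 95% interval -1.03 to 0.37).

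Among the other spindle genes the microtubule binder gene Nusap1 and the kinesin genes Kif2c and Kif4a fell, at -1.46, -1.18 and -1.07, and Tpx2, which activates Aurora A on the spindle, did not pass (-0.55, limma adjusted p = 0.063). Kif11 went the other way. This gene of the kinesin Eg5, which pushes spindle poles apart, stood at 93.3, 108 and 99.1 CPM in control, 321, 287 and 264 CPM in CIAKI and 96, 104 and 128 CPM in icariin kidneys. Each CIAKI library was thus above every other library, and the log2 fold change was 1.53 (SE 0.12, limma adjusted p = 4.9e-05). Its neighbours in the RefSeq gene order of assembly GRCr8, looked up after the value of Kif11 was seen, were Ide, with a control mean of 194 ± 2.68 CPM and a CIAKI mean of 257 ± 22.0 CPM (SD, n = 3), and Hhex, with 2.12 ± 0.177 and 1.47 ± 0.28 CPM. In limma Ide rose by 0.40 (adjusted p = 0.0022) and Hhex did not pass (-0.34, adjusted p = 0.11).

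**Figure D1:**
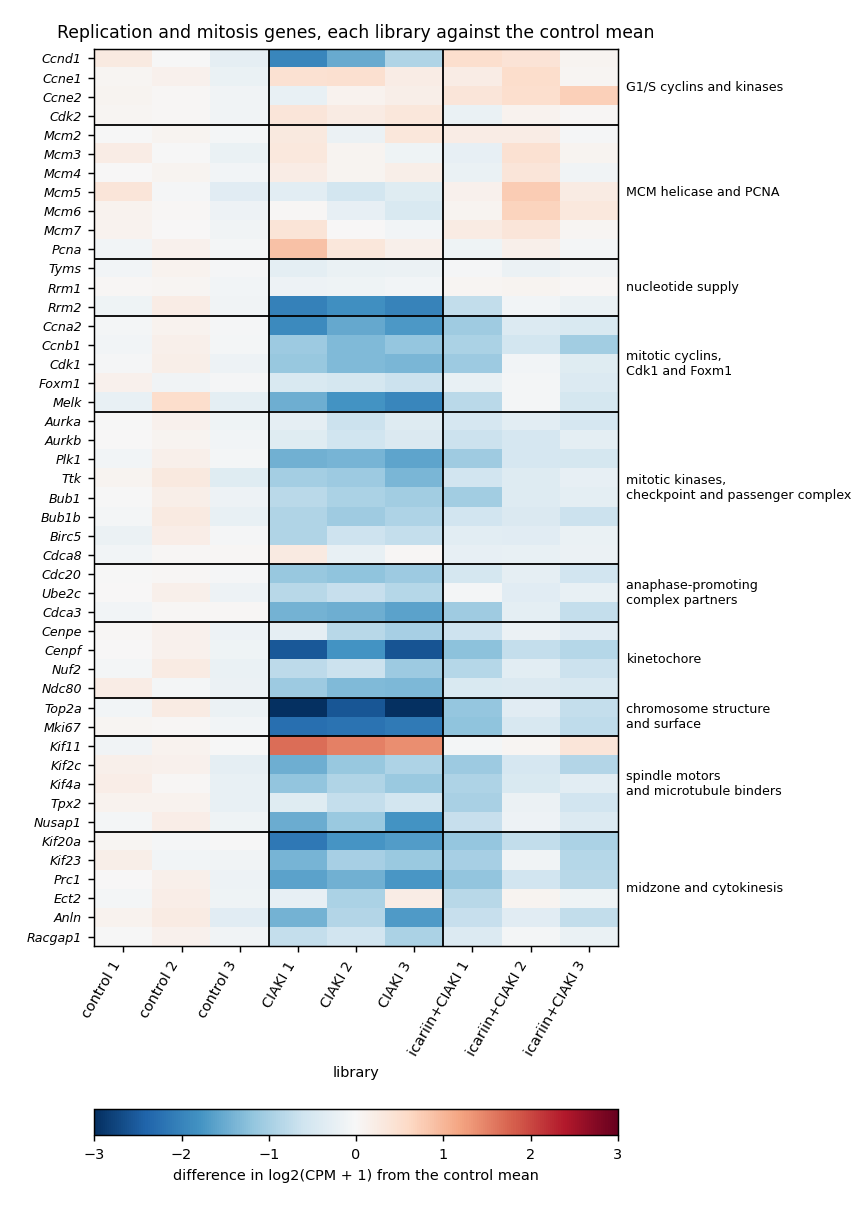
Heat map of the 47 members (rows, grouped by role) in the 9 libraries (columns), coloured by the difference in log2(CPM + 1) from the mean of the 3 control libraries. CIAKI columns are blue in most mitosis rows and pale in the MCM rows, Kif11 is red in the 3 CIAKI columns, and icariin columns are paler blue.

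None of the 7 members for the MCM helicase and its clamp was called by limma in CIAKI, with a median of 0.11. Mcm7 stood at 19.3, 18 and 16.4 CPM in control, 23.6, 18.1 and 16.9 CPM in CIAKI and 21.4, 23.1 and 18.8 CPM in icariin kidneys, with overlap between all groups. The 95% intervals for the 6 helicase subunits (Mcm2 to Mcm7) ran from -0.91 at their lowest (Mcm5) to 0.55 at their highest (Mcm3). Those intervals leave room for moderate change but not for a change of the size seen in Top2a or Mki67. Pcna, the sliding clamp, stood at 33.5, 38.7 and 34.1 CPM in control and 66.1, 44.9 and 39.3 CPM in CIAKI. These groups did not overlap, and the call depended on the test: limma gave 0.46 (adjusted p = 0.06), TMM scaling an adjusted p of 0.042, edgeR 0.035 and DESeq2 0.013.

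Of the 3 members for nucleotide supply, Rrm2 fell and the other two did not pass. Rrm2, the subunit of ribonucleotide reductase that is made in S phase, stood at 5.69, 7.47 and 5.75 CPM in control, 0.782, 1.04 and 0.808 CPM in CIAKI and 3.34, 5.82 and 5.33 CPM in icariin kidneys (-1.95 in CIAKI, SE 0.20, limma adjusted p = 0.00014). Rrm1, the large subunit that persists through the cycle, stood at 55.7, 57.2 and 51.2 CPM in control and 49.3, 49.5 and 51.9 CPM in CIAKI (-0.12, 95% interval -0.27 to 0.03). Tyms, thymidylate synthase, lay at -0.22 (95% interval -0.41 to -0.02, limma adjusted p = 0.07).

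The 4 members of the G1 to S step moved apart from each other. Ccnd1, the cyclin D1 that links growth signals to the cycle, stood at 314, 260 and 217 CPM in control, 66.3, 90.3 and 140 CPM in CIAKI and 369, 346 and 276 CPM in icariin kidneys. Its CIAKI libraries lay below all others (-1.46, SE 0.25, limma adjusted p = 0.0019). Cdk2, the kinase of cyclins E and A, stood at 14.8, 14.3 and 13.1 CPM in control and 18.4, 16.9 and 18 CPM in CIAKI, and was called higher (0.31, SE 0.11, limma adjusted p = 0.041). That call ended without any control library, CIAKI 1, CIAKI 3 or icariin 3 (0.052 to 0.13), without the filter (0.054) and with quantile normalization (0.053). The cyclin E genes Ccne1 and Ccne2 did not pass (0.38 and 0.02, limma adjusted p of 0.11 and 0.93), although the CIAKI libraries of Ccne1, at 1.46, 1.5 and 1.09 CPM, lay above its control libraries at 0.891, 0.962 and 0.581 CPM.

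**Figure D2:**
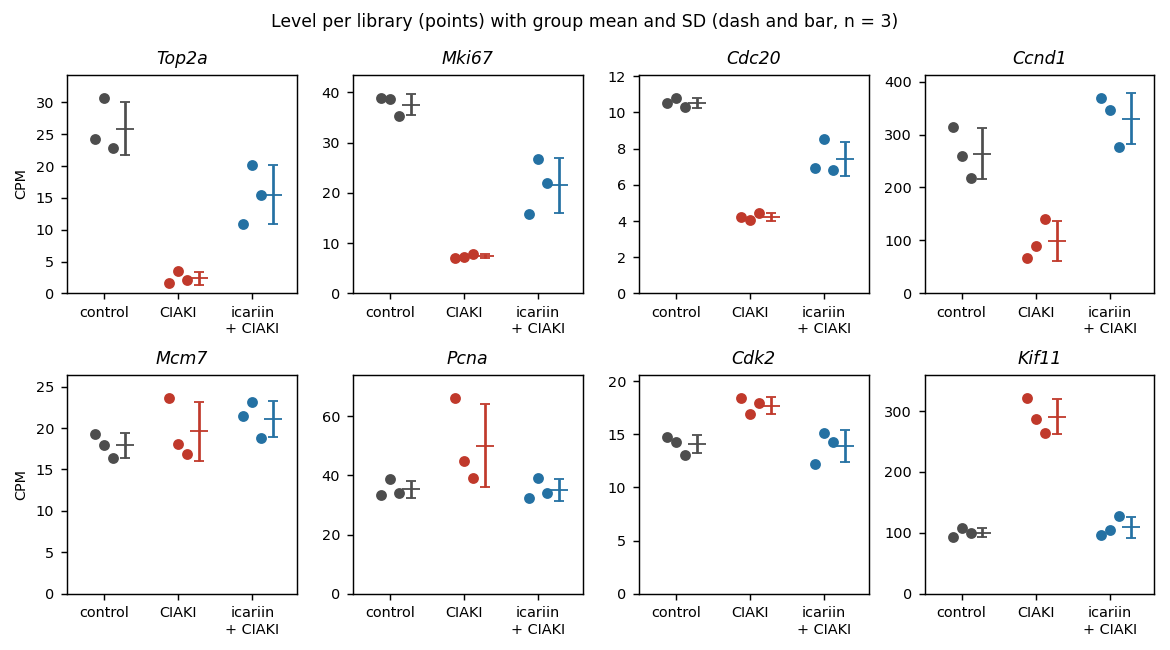
CPM of 8 members in each library (points), with group mean and SD (dash and bar, n = 3). Top2a, Mki67 and Cdc20 are lowest in CIAKI and intermediate in icariin kidneys, Mcm7 overlaps between groups, and Kif11 stands at 264 to 321 CPM in CIAKI against 93.3 to 128 CPM in the other libraries.

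Because these members moved by role, the promoter windows of 38 of the 48 genes that had an entry were read from RefSeq (build GRCr8, 250 bases before to 50 after the gene start, 5′ to 3′ on the gene's strand). Windows of 4 genes are shown: Cdc20 and Top2a, which fell, Mcm5, which was not called, and Kif11, which rose. Capitals mark the letters searched on both strands, namely the CCAAT box (CCAAT), the CHR element (TTTGAA) and E2F letters (TTTGGCGC, TTTCGCGC or GGCGGGAA). In the Mcm5 window the pair of E2F matches overlap each other. Other forms of these sites were not searched, so a window without capitals may still hold one, and the shares depend on the letters chosen.
Cdc20 (chr5:137255750-137256049, minus strand): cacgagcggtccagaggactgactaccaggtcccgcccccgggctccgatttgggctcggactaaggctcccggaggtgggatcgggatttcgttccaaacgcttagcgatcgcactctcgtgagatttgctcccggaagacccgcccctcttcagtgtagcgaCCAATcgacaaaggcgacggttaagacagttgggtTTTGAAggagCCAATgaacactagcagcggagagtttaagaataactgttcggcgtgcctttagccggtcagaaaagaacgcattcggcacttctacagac
Top2a (chr10:84473044-84473343, minus strand): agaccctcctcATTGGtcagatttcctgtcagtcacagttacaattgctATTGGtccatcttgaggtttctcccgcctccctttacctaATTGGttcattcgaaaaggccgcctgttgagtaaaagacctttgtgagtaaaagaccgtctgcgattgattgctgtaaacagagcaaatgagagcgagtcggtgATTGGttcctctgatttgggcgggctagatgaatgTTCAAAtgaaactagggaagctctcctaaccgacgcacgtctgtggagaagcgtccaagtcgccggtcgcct
Mcm5 (chr19:13488563-13488862, plus strand): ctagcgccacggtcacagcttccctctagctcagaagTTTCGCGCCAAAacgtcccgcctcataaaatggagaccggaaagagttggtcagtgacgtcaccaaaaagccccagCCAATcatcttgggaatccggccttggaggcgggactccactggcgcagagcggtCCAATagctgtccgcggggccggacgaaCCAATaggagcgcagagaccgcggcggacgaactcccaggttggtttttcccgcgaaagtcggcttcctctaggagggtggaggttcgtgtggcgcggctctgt
Kif11 (chr1:244536617-244536916, plus strand): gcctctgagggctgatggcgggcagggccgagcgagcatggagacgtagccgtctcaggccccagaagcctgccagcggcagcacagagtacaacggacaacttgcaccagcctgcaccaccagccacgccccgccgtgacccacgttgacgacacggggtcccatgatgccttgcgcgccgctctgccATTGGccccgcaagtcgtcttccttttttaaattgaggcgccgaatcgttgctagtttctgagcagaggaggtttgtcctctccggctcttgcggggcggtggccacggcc
In Cdc20 the CHR letters begin at -51 from the gene start, between CCAAT boxes at -86 and -41, and in Top2a the CHR letters, on the other strand, begin at -22 next to a CCAAT box at -57. Mcm5 holds E2F letters and 3 CCAAT boxes but no CHR letters, and Kif11 holds 1 CCAAT box and neither of the others. Of 24 windows of members called lower in CIAKI, 16 (66.7%) held CHR letters, against 3 of 13 (23.1%) of the members that were higher or not called and 18.1% of 27457 windows of all genes. E2F letters were in 2 of those 24 windows (8.33%) and in 7 of the 13 (53.8%), against 2.83% of all windows. The CCAAT box was in 66.7% and 76.9% of the windows of these groups, against 37.7% of all. A match is a description of the letters and not a bound site, and since the groups were split by the measured fold change no test was made. All 24 windows of members that fell were of mitosis genes, and most of the others were of replication genes. Fold change and role therefore cannot be told apart over these groups. The 3 windows with CHR letters among the 13 others were those of Mcm2 and of the mitosis genes Cdca8 and Ect2. Of all 38 member windows, 20 (52.6%) held CHR letters.

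**Figure D3:**
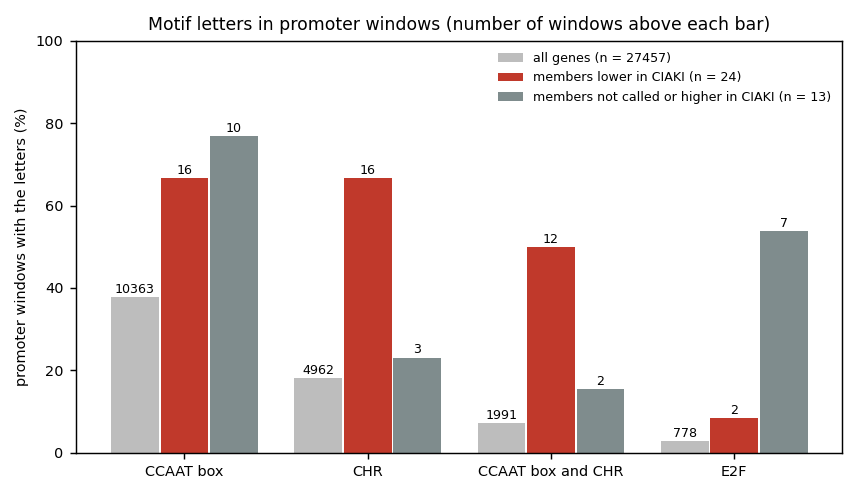
Share of promoter windows (%, y axis) that hold the letters of the CCAAT box, the CHR element, both of these, or E2F, for all genes (n = 27457), members lower in CIAKI (n = 24) and members higher or not called (n = 13), with the number of windows above each bar. CHR letters are most frequent in the members that fell, and E2F letters in those that did not.

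The second comparison asked how these genes differed when icariin preceded contrast. Many of the mitosis genes among the members stood higher with icariin than with CIAKI alone. With limma 22 of 46 members were called higher and 2 lower (Kif11 and Cdk2), and 22 did not pass, with a median of 0.48. With quantile normalization the median was 0.26 and 15 members were called higher. Over all features 19.2% were higher and 20.2% lower, with a median of 0.017. Without the filter 17 of 47 members were higher and 2 lower, against 9.95% and 10.1% of all features, and edgeR called 21 higher and 3 lower, against 14.2% and 16.4%. The icariin libraries lay wholly above the CIAKI libraries for 26 of 46 tested members and wholly below for 3, against 24.9% and 25.9% of all features. The CIAKI libraries enter this comparison and the first, so their directions are not independent.

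Top2a and Mki67 rose by 2.28 (SE 0.26, limma adjusted p = 0.00031) and 1.40 (SE 0.16, limma adjusted p = 0.00036). Ccnd1 rose by 1.79 and Rrm2 by 1.61 (limma adjusted p of 0.0008 and 0.00042). Of the mitotic cyclin group Melk (1.26), Ccna2 (1.08) and Cdk1 (0.77) rose, and Ccnb1 did not pass (0.34, 95% interval -0.03 to 0.72). Both tested partners of the anaphase-promoting complex rose, Cdca3 by 0.80 and Cdc20 by 0.68. Of 4 kinetochore genes Cenpf (1.36) and Ndc80 (0.79) rose, while Cenpe and Nuf2 lay at 0.32 and 0.23 with overlapping groups. Of 6 midzone and cytokinesis genes 4 rose: Kif20a (0.90), Anln (0.74), Prc1 (0.73) and Racgap1 (0.52). Plk1 (0.77), Ttk (0.76) and Birc5 (0.47) rose among the mitotic kinase and checkpoint genes, and Nusap1 (1.04) among the spindle genes. Foxm1 did not pass (0.31, 95% interval -0.01 to 0.63). Ube2c, tested by edgeR only, rose by 2.29 (adjusted p = 0.0045).

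The Aurora kinase genes and Tpx2 were not called. Aurka stood at 4.29, 5.05 and 4.3 CPM with icariin against 5.29, 3.82 and 4.8 CPM in CIAKI, a log2 difference of -0.02 (95% interval -0.35 to 0.32). Aurkb and Tpx2 also lay at -0.02 each, with intervals of -0.35 to 0.31 and -0.50 to 0.45. In replication, Mcm5 and Mcm6 were called higher with icariin (0.79 and 0.57, limma adjusted p of 0.02 and 0.036), with Mcm5 at 6.36, 10.4 and 6.88 CPM against 4.37, 3.55 and 4.24 CPM. Icariin 2 was the highest library here, and without it both calls ended (0.07 and 0.13). Mcm5 also lost its call without CIAKI 2 (0.059), and Mcm6 without CIAKI 2 or 3, control 1 or 2, or icariin 3 (0.05 to 0.1). The calls of Cdk1, Anln, Racgap1, Birc5 and Ccne2 (0.50) ended without icariin 2 (0.07 to 0.12) or icariin 3 (0.057 to 0.1). They ended as well without CIAKI 1 (0.051 to 0.11) and, except for Ccne2, without CIAKI 3 (0.066 to 0.11). Cdk1 further lost its call without CIAKI 2 (0.073), Anln without control 1 (0.053) or icariin 1 (0.064), and Birc5 without control 3 (0.055) or icariin 1 (0.076). Cdk2, called lower (-0.34, limma adjusted p = 0.032), lost its call without CIAKI 1 or 3 or icariin 1 or 3 (0.052 to 0.11). Quantile normalization ended the calls of Mcm6, Cdk1, Anln, Racgap1, Birc5, Ccne2, Ttk and Cdca3 (0.057 to 0.21). The first 6 of these also ended without the filter on low values (0.065 to 0.09), and edgeR ended those of Anln (0.07) and Ccne2 (0.069). With DESeq2 Anln and Ccne2 passed (adjusted p of 0.024 and 0.027). Pcna lay at -0.47, with an adjusted p of 0.055 in limma and 0.035 in edgeR. Kif11 fell by 1.41 (SE 0.12, limma adjusted p = 8.7e-05), and its icariin libraries overlapped the control libraries.

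Levels of different genes can be compared only per length, and the authors' deposited table of selected mRNAs gives FPKM for 19 members in the CIAKI and icariin libraries. In icariin kidneys Ccnd1 was highest at 68.3 ± 9.33 FPKM, then Kif11 at 18.2 ± 3.07 and Melk at 4.59 ± 1.28 FPKM (SD, n = 3). Top2a stood at 2.18 ± 0.644, Mki67 at 1.71 ± 0.43 and Ttk at 0.433 ± 0.0663 FPKM. In CIAKI kidneys Kif11, at 47.2 ± 3.67 FPKM, was above Ccnd1, at 20.1 ± 7.97 FPKM. Per length, Kif11 RNA was thus far above that of the other mitosis genes among these 19 members in both groups.

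The third comparison asked whether icariin kidneys differed from untreated ones. Kif20a alone was called, lower with icariin (-0.95, SE 0.17, limma adjusted p = 0.049), where 0.227% of all features were lower. The Kif20a call ended without any control or icariin library, CIAKI 2 or CIAKI 3 (0.052 to 0.19) and with edgeR (0.14). No member was called higher by limma, edgeR or DESeq2, where 0.4%, 0.198% and 1.41% of all features were, and 1 (Ccne2) was higher in limma at an unadjusted p below 0.05. DESeq2 on the recovered reads called 7 of 47 members lower and edgeR called 0, against 1.15% and 0.108% of all features, so the number of calls depended on the tool. At an unadjusted p below 0.05 edgeR had 20 members lower and 1 higher, against 4.27% and 4.26% of all features.

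Below the threshold most mitosis members still stood under control. The icariin libraries lay wholly below the control libraries for 23 of 46 tested members and wholly above for 1, against 10.2% and 9.12% of all features. At an unadjusted p below 0.05 limma had 21 members lower and 1 higher, against 5.45% and 4.73% of all features. The median over the members was -0.43, against -0.002 over all features. Of the 30 members called lower in CIAKI, 27 had an icariin mean between the CIAKI and control means, Aurka and Aurkb a mean below CIAKI and Ccnd1 a mean above control. Their CIAKI means were 28.6% of control and their icariin means 60.7% of control, as medians over these 30, which were picked by the first comparison. The same count and medians were not made over all features called lower in CIAKI, so they cannot be called particular to the members. Prc1, Mki67 and Ccnb1 were close to the threshold in limma, at -0.87, -0.81 and -0.85 (limma adjusted p of 0.081, 0.08 and 0.073). DESeq2 called all of them lower (adjusted p of 0.00094, 0.0012 and 0.00022), and edgeR none of them (0.15, 0.13 and 0.13). Ccnb1 stood at 4.1, 4.94 and 4.12 CPM in control, 1.52, 1.13 and 1.41 CPM in CIAKI and 1.78, 2.65 and 1.62 CPM in icariin kidneys, nearer to CIAKI than to control. The 7 MCM and PCNA members, in contrast, had a median of 0.14 and no group that lay apart.

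**Figure D4:**
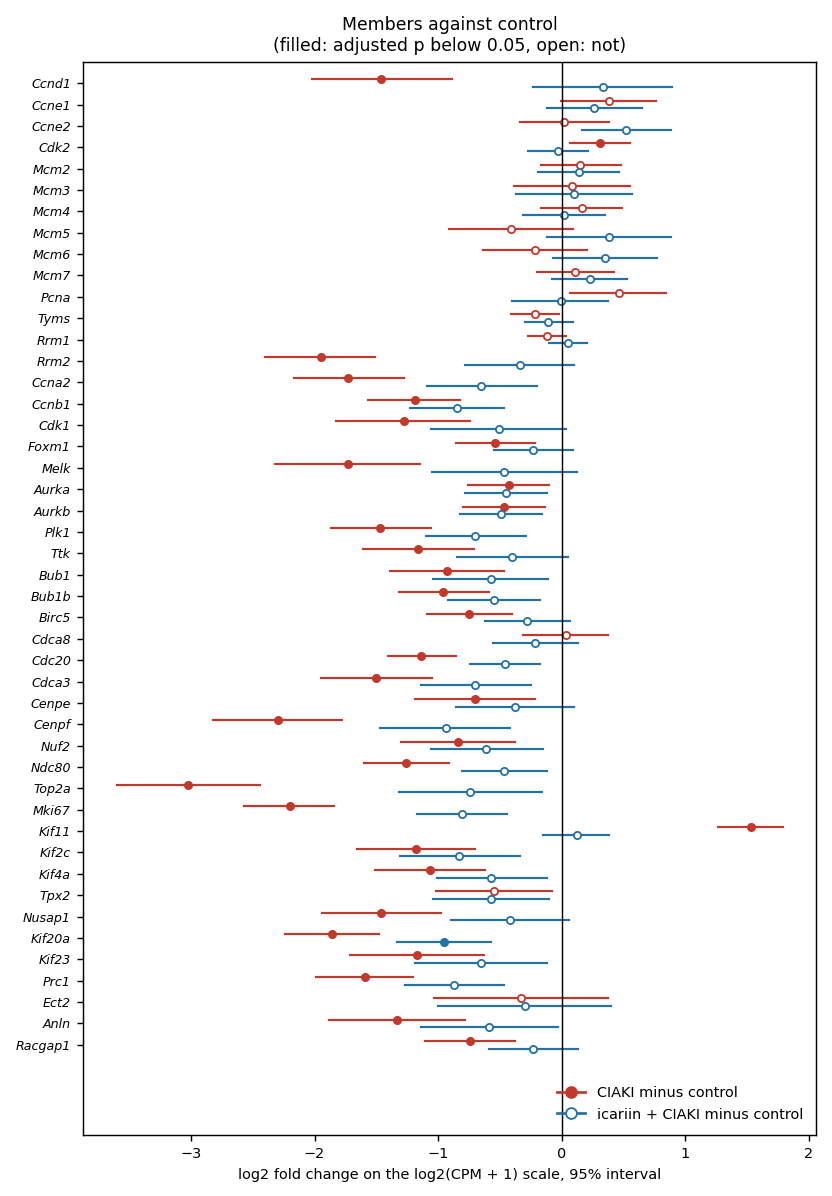
Log2 fold change against control on the log2(CPM + 1) scale (x axis) with its 95% interval for the 46 tested members (y axis), for CIAKI (red) and icariin with CIAKI (blue). Filled points have an adjusted p below 0.05; most blue points lie between the red points and 0, and the MCM genes lie near 0 in both.

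Of 151 further cell cycle genes in 10 lists, 148 were found and 133 tested, and in CIAKI 23 (17.3%) were lower and 20 (15.0%) higher in limma, below the shares over all features. In the list of other mitotic motors and cytokinesis genes 5 of 13 (38.5%) fell and none rose, among them Hmmr (-1.52), Ckap2 (-1.09) and Cep55 (-1.05). Of 13 condensin and cohesin genes 4 (30.8%) fell and 2 rose, with the separase gene Espl1 at -1.53, the securin gene Pttg1 at -0.85 and the cohesin subunit gene Stag1 at 0.34. Among 13 other kinetochore and checkpoint genes 4 (30.8%) fell and 2 rose. Zwint, a kinetochore scaffold gene, rose by 1.06 (144 ± 3.41 to 304 ± 46.1 CPM, SD, n = 3) and Cenpn by 0.57, while the cohesin protector gene Sgo2 lay at -1.29.

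The lists that follow had shares of called genes close to or below the 20.8% higher and 20.5% lower of all features, except where a share is given. Of 17 tested genes that license and fire origins 4 (23.5%) rose and none fell. Mcm10 rose by 1.25, from 2.4 ± 0.981 to 7.0 ± 1.62 CPM, Gmnn, the geminin that blocks relicensing, by 0.93, and Orc2 by 0.49 (n = 3). Of 20 polymerase and replication factor genes 1 rose (Rpa2, 0.73), 1 fell (Pola1, -0.61), and Pole did not pass (-0.44). Of 8 further nucleotide synthesis genes 2 (25%) fell, Rrm2b and Dut, at -0.75 and -0.63, and Tk1 did not pass (-0.32). Of 14 E2F and retinoblastoma family genes 3 (21.4%) rose and 1 fell, with E2f5 at 1.24, E2f4, a subunit of DREAM, at 0.64 and Rb1 at -0.33. Among 11 G1 partners the cyclin genes Ccnd2 and Ccnd3 fell, at -0.99 and -0.37, and the phosphatase gene Cdc25a rose by 0.39. Of 14 subunits and regulators of the anaphase-promoting complex 2 rose and 2 fell, with Cdc16 at 0.33, Cdc27 at 0.28 and Anapc13 at -0.44.

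Of 10 tested inhibitors and exit genes 5 (50%) rose and 2 (20%) fell. Cdkn1a, the p21 inhibitor of cyclin-dependent kinases, went from 3.92 ± 0.432 to 35.3 ± 21.7 CPM in CIAKI and stood at 3.82 ± 1.87 CPM with icariin (SD, n = 3). Ccng1 (cyclin G1) rose by 1.01 and Cdkn3, a mitotic phosphatase gene that rises and falls with the cycle, lay at -1.42. With icariin against control none of the 133 genes was called by limma or edgeR in either direction. DESeq2 called 1 higher and 2 lower, where 1.41% and 1.15% of all features were. In limma 5 (3.76%) were higher and 10 (7.52%) lower at an unadjusted p below 0.05, against 4.73% and 5.45% of all features.

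Kidney tissue holds many cell types, and fewer cells of a type cannot be told apart here from less RNA per cell. Summed markers of T and B lymphocytes, macrophages, endothelium, proximal tubule and podocytes were each lowest in CIAKI, as most mitosis members were. Counts of markers that fell or rose are limma calls in CIAKI against control, where 20.5% of all features were lower and 20.8% higher. Lymphocyte markers summed to 24.6 to 27.4 CPM in control, 5.9 to 9.42 CPM in CIAKI and 14.0 to 24.2 CPM in icariin kidneys. All 4 tested of 8 lymphocyte markers fell in CIAKI, and Cd3d, Cd3g and Ms4a1 were at 0 in some libraries. Most of this sum was Cd4, which rat macrophages also express, at 18.5 ± 1.65 CPM in control, 6.94 ± 1.9 CPM in CIAKI and 16.5 ± 5.01 CPM in icariin kidneys (SD, n = 3). Lck, a T cell kinase gene, averaged 3.03, 0.665 and 1.99 CPM in these groups, and the B cell genes Cd79b and Ms4a1 averaged at most 0.301 and 0.0669 CPM. Macrophage markers summed to 82.4 to 91.7, 41.2 to 63 and 69 to 88.4 CPM in these groups (3 of 5 tested fell and 1 rose), and endothelial markers to 230 to 265, 160 to 175 and 215 to 270 CPM (2 of 4 fell). Proximal tubule markers summed to 19200 to 22900, 7260 to 10100 and 18600 to 20400 CPM, and 6 of 7 fell. Podocyte markers summed to 720 to 779, 470 to 482 and 573 to 729 CPM, and 4 of 4 fell. Mesenchymal markers summed to 441 to 746, 330 to 374 and 277 to 458 CPM, of which Col1a1 (-2.26) and Col3a1 (230 ± 63.4 to 112 ± 10.9 CPM, SD, n = 3) fell and Dcn (0.56) rose. Thick ascending limb markers summed to 4050 to 6750, 3600 to 5230 and 5250 to 6410 CPM, and 2 of 4 fell. Principal cell markers went the other way, at 354 to 425, 455 to 720 and 656 to 861 CPM (2 of 4 rose and 1 fell). Erythroid precursor markers did so too, with 310 to 703 CPM in control and 973 to 1180 CPM in CIAKI (3 of 5 tested rose). Most of the CIAKI sum was Hbb, at 721 ± 94.3 CPM against 183 ± 189 CPM in control (SD, n = 3). In edgeR Tfrc passed (adjusted p = 0.011), and Hbb and Hemgn did not (0.086 and 0.21). Injured tubule markers also rose, with 197 to 204 CPM in control and 486 to 1080 CPM in CIAKI (4 of 6 tested rose and 1 fell). The part of each of these cell types in the member values was not tested.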

How the data were processed

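RNA-seq of 9 kidneys was analysed, in 3 groups of 3 separate rats taken from the sample titles. The main table was deposited in CPM, per the file headers without a stated method, and each library summed to 1000000. The submitters' processing notes name Bowtie 0.12.2 and the build mm8, a mouse build, while the identifiers are rat Ensembl genes, so the reference used is not settled. The sources used here do not give the counter or its strand setting. Overlapping genes are therefore uncertain. Whole reads were recovered from the steps of the CPM values (100% whole within 0.1), and each of the 23850 read counts deposited by the authors, over 3975 selected mRNAs, was matched. FPKM values of those mRNAs are as the authors deposited them.

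The main test was limma 3.58.1 with an intensity trend on log2(CPM + 1), on the 16731 features that reached 1 CPM in 3 or more libraries, with all 9 libraries in the fit. Tests were two-sided, with Benjamini-Hochberg adjustment over all features and calls below 0.05. Alternatives were a pseudocount of 0.25, no filter, a filter of 5 CPM, TMM scaling, quantile normalization, the 2 groups alone, a replicate block, leaving out each library, and edgeR 4.0.16 and DESeq2 1.42.0 on recovered reads of the 23227 features that reached 10 reads in 3 or more libraries. Members and lists were chosen with earlier results of these data known. All members may be named, and of each further list the 3 genes with the smallest p in CIAKI against control, and Ccne2, Ide and Hhex by their values or place. In the lymphocyte markers 1 gene is not reported here, and the summed level leaves it out.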

Additional observations from a re-analysis of the deposited data

How the results depend on the processing

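No member changed direction with a call under any alternative. For CIAKI against control, the members called lower numbered 12 with the filter of 5 CPM, which keeps only 27 members, and 26 to 30 when 1 library was left out. Those called higher fell from 2 to 1 without the filter and with the replicate block, and were 1 to 2 when a library was left out (1 without any control, CIAKI 1 or icariin 3). For icariin against CIAKI, members called higher were 14 with the filter of 5 CPM, 15 with quantile normalization, 16 with the 2 groups alone and 15 to 22 when a library was left out, and those called lower were 1 with the 2 groups alone and with the replicate block, and 1 to 2 when a library was left out. For icariin against control, members called lower numbered 7 with DESeq2, 2 with quantile normalization, and 0 with edgeR, TMM scaling, no filter, a pseudocount of 0.25, the filter of 5 CPM or the replicate block, and 0 to 1 when a library was left out. The median over the members moved from -0.88 to -1.29 with DESeq2 and -0.43 with the filter of 5 CPM for CIAKI against control, and from 0.48 to 0.26 with quantile normalization and 0.73 with DESeq2 for icariin against CIAKI. The cause of these differences was not tested, other than the smaller number of members that the stricter filter keeps.

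The titles share replicate numbers, but correlations of same-numbered libraries after removal of group means ran from -0.03 to 0.08 over 9 pairs, and the best match had the same number in 8 of 18 cases, so the numbers were not taken as pairs. With the replicate block 28 members were lower and 1 higher in CIAKI, and 22 higher and 1 lower with icariin against CIAKI. Depth limits the members near or below 1 CPM, such as Ube2c with 6 to 15 reads in CIAKI libraries.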

Other observations

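Within the groups, libraries differed in a common direction over the members. Among icariin libraries, icariin 2 held the highest value for 35 of 47 members and icariin 1 the lowest for 33. Among controls, control 2 was highest for 32 members and control 3 lowest for 35. The CIAKI libraries were more mixed, with CIAKI 1 highest for 22 and CIAKI 3 lowest for 22. Cdk1 shows the icariin spread, with 2.08, 5.17 and 4.09 CPM in icariin 1, 2 and 3.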
